A study of Mus musculus with 9 samples.

Results

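The genes of the cytosolic ribosomal proteins were followed in RNA of mouse pancreatic islets. Genes were taken by symbol (Rpl or Rps followed by a number, with the stalk genes Rplp0, Rplp1 and Rplp2 and the gene Rpsa), leaving out the Rps6 kinases and symbols that name a pseudogene copy. The rule found 89 genes of the 46316 gene symbols in the table, 54 of the large ribosomal subunit and 35 of the small one. Where a gene had several transcripts, the one with most counts in all stood for it. Of the 89 genes, 85 passed the filter on low counts and were tested. The other 4 were Rpl3l, Rpl10l, Rpl39l and Rpl32l, of which Rpl10l had 0 counts and the rest at most 45 counts over all libraries. The tested members held from 255 to 136443 counts, with a median of 42670.

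Islets came from 3 groups of 3 samples. Untreated db/+ mice carry 1 copy of the db mutation of the leptin receptor and served as controls, untreated db/db mice lack an intact copy and grow obese, with diabetes, and the last group was db/db mice given imeglimin and metformin, a pair of oral glucose-lowering drugs. The labels name genotype, tissue and treatment, and no source used here gives strain, age, sex, dose, duration or how many mice were pooled. The drugs were given together, so neither can be read alone. Nothing in the labels ties the samples of a group to separate animals, so p-values here measure only how far the samples lie apart, and that spread may be technical.

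A ribosome is built from ribosomal RNA and a set of proteins that join it in the nucleolus, mostly 1 copy of each per ribosome. The messenger RNAs of these proteins are among the most abundant of any cell and typically begin with a run of pyrimidines, the TOP motif, through which mTORC1 and the binding protein Larp1 set their translation. In beta cells, which make and secrete insulin in bulk, ribosomes on the endoplasmic reticulum carry that synthesis. The values here are levels of messenger RNA, which do not give the number of ribosomes or their activity.

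Libraries held 10292668 to 15281813 counts in genes. The 6 beta cell markers had the highest sum of all marker lists in every library, with a summed level of 246383 to 446734 normalised CPM (counts scaled to a fixed library size) in db/+ islets, 152715 to 234363 in untreated db/db islets and 209148 to 233183 in treated ones. The markers of several other cells differed between groups. The 12 lymphocyte markers summed to 15.1 to 19.0 CPM in db/+ islets, 41.2 to 362 in untreated db/db islets and 4.77 to 9.22 in treated ones, with Cd3d, Cd8a and Ms4a1 at 0 counts in all db/+ libraries and Cd8a at 0 in all treated ones. The 12 acinar markers summed to 13.6 to 111 CPM, 266 to 2179 CPM and 110 to 392 CPM in the same order. Untreated db/db replicate 1 was the highest of the 9 libraries in both lists. Endothelial markers summed to 383 to 418 CPM in db/+ islets, 243 to 315 in untreated db/db islets and 222 to 242 in treated ones. Delta cell markers summed to 4370 to 6638 CPM, 2651 to 3732 and 1760.5 to 2919.8. Macrophage markers summed to 116 to 121 CPM, 147 to 190.0 and 133 to 151. The db/+ libraries thus lay above all db/db ones for beta, endothelial and delta cell markers, and below all of them for macrophage markers. The part of all these cells in the results was not tested.

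Counts of the ribosomal protein genes together made up a similar share of 8 libraries. The db/+ share was 3.15%, 3.11% and 3.16%, the untreated db/db share 3.74%, 3.09% and 3.00%, and the treated share 3.01%, 3.11% and 3.17%. Untreated db/db replicate 1 stood above the other 8 libraries, which lay within 3.00% to 3.17%. After TMM scaling, which sets the bulk of genes equal between libraries, the summed level was 38704, 34329 and 32261 CPM in db/+ islets, where replicate 1 was highest. The mean summed level was 35098 ± 3289.5 CPM (SD, n = 3) in db/+ islets, 30139 ± 1696 in untreated db/db islets and 30237 ± 613 in treated ones. A share of raw counts and a TMM-scaled level therefore gave different pictures of the total, and the scaling is followed through the results below.

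In untreated db/db islets the ribosomal protein genes did not change as 1 block. Of the 85 tested, 31 were lower than in db/+ islets, 10 were higher and 44 were not called by edgeR's quasi-likelihood test at an adjusted p under 0.05. Thus 48.2% of members were called, while 63.2% of all 16761 genes tested were called in the same comparison (32.0% lower and 31.3% higher). DESeq2 called 48 members and limma's voom 43, against 61.2% and 62.2% of all genes, and 46 members had an unadjusted p under 0.05 against 66.9%. Lower members were Rpl36, Rps19, Rpsa, Rpl13a and Rpl28 at the far end, and higher ones were Rps27l, Rpl7a, Rpl15, Rps26 and Rps2. Log2 fold changes ran from -1.10 to 0.94 with a median of -0.07, against a median of 0.02 over all genes tested. The quartiles of members were -0.44 and 0.15, and those of all genes -0.61 and 0.66. A change of at least 1.5-fold was called for 17 lower and 2 higher members, against 23.7% and 23.5% of all genes. The untreated db/db and db/+ libraries did not overlap for 42 members, 32 lower and 10 higher, and for 67.0% of all genes.

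**Figure D1:**
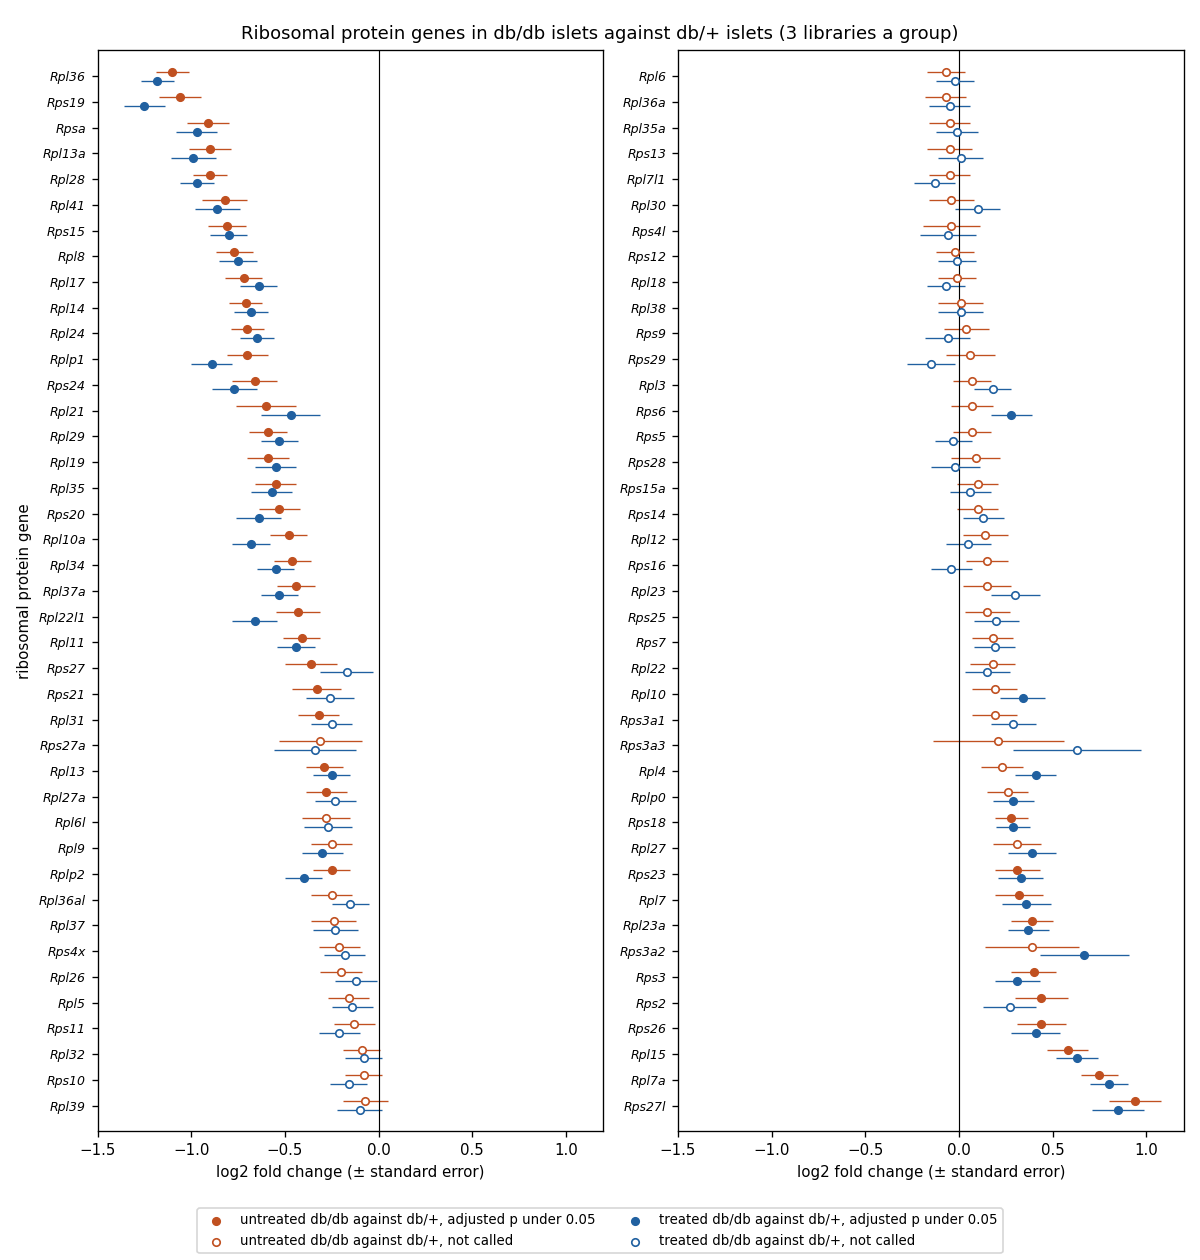
Log2 fold change (horizontal axis, ± standard error) of 82 of the 85 tested ribosomal protein genes (vertical axis, ordered by the change in untreated db/db islets), for untreated db/db islets against db/+ islets (orange) and treated db/db islets against db/+ islets (blue), with 3 libraries a group and filled points for an adjusted p under 0.05. Members spread from Rpl36 at -1.10 to Rps27l at 0.94 in untreated islets; both sets of points share the db/+ libraries.

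The balance of higher and lower calls depended on the scaling and on db/+ replicate 1. Calls were 19 higher and 24 lower with upper-quartile factors, 36 higher and 16 lower with library totals alone, and 31 higher and 20 lower when libraries were scaled to an equal share of ribosomal protein counts. Of all genes tested, 63.8%, 62.9% and 61.5% were called under these scalings, against 63.2% in the main fit. Without db/+ replicate 1 there were 32 higher and 23 lower, and the median became 0.09. That library had the highest beta cell marker sum of the 9 (446734 CPM) and the lowest TMM factor (0.8156, where the highest was 1.172). Whether these bear on the balance of calls was not tested. Library totals alone moved the median of all genes to 0.30, so that the members' median lay at -0.08 relative to all genes there and at -0.10 in the main fit. Of the 31 lower members, 23 kept their call in all 9 removals of 1 library and 14 kept it in every setting tried. Of the 10 higher members, 7 kept it in all removals and 2, Rps27l and Rpl7a, in every setting. No member that was called changed to a call in the opposite direction in any setting.

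Rpl36, a protein of the large subunit, had the lowest log2 fold change. It stood at 364.7, 363.8 and 350.7 CPM in db/+ islets, at 175.6, 166.7 and 160.1 in untreated db/db islets and at 154.5, 153.3 and 167.8 in treated ones. All 6 db/db libraries lay below all 3 db/+ libraries. The fold change was -1.10 ± 0.09 on the log2 scale (SE; adjusted p = 6.77e-07) in untreated db/db islets and ranged from -1.13 to -1.0 when 1 library was left out. Rps19, a small-subunit protein needed to mature 18S ribosomal RNA and the first gene found mutated in Diamond-Blackfan anemia in people, fell by a similar amount. Its level was 665, 694 and 681 CPM in db/+ islets, 379, 289 and 308 in untreated db/db islets, and 289, 286 and 281 in treated ones. The 3 treated libraries, at 280.7 to 289.1 CPM, lay just below the lowest untreated one at 289.3 CPM. Rps19 changed by -1.06 ± 0.11 (log2; adjusted p = 5.28e-06).

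Rpsa, whose protein sits on the small subunit and is also known as the laminin receptor precursor, fell as well. Its level was 597, 644 and 665 CPM in db/+ islets, 389.6, 300.3 and 325 in untreated db/db islets, and 329.7, 322 and 324 in treated ones. The log2 fold change was -0.91 ± 0.11 (adjusted p = 1.88e-05), and untreated and treated libraries overlapped. Rpl13a, a large-subunit protein that can leave the ribosome and silence inflammatory messenger RNAs in human monocytes, was among the most abundant members. Its level was 1418, 1326 and 1324 CPM in db/+ islets, 819, 681 and 682 in untreated db/db islets, and 646, 718 and 687 in treated ones. It changed by -0.90 ± 0.11 (log2; adjusted p = 2.36e-05). Rpl28, a large-subunit protein with no counterpart in budding yeast, changed by the same -0.90 ± 0.09 (log2; adjusted p = 4.56e-06), from 586, 609.8 and 541 CPM in db/+ islets to 316, 309 and 305 in untreated db/db islets, with no overlap. Its treated libraries held 289, 295 and 302 CPM.

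Rps27l showed the largest rise among members. Its protein is a close relative of Rps27 and its gene is a target of p53 in human cells. The level was 64.2, 41.9 and 42.8 CPM in db/+ islets, 90.3, 101 and 95.2 in untreated db/db islets, and 92.3, 92.3 and 84.6 in treated ones. The db/+ libraries lay below all db/db libraries, with replicate 1 above the other db/+ ones, while untreated and treated libraries overlapped. The log2 fold change was 0.94 ± 0.14 (adjusted p = 0.000101) and 1.26 without db/+ replicate 1. Rpl7a, a large-subunit protein whose gene hosts small nucleolar RNAs, rose from 154, 126 and 127 CPM to 234, 232 and 215 CPM, and its treated libraries held 235, 239 and 234 CPM. Its log2 fold change was 0.75 ± 0.10 (adjusted p = 3.69e-05), and all 6 db/db libraries lay above the db/+ ones.

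Rpl15, a large-subunit protein, rose from 176, 135 and 144 CPM to 229, 234 and 217 CPM. The log2 fold change was 0.58 ± 0.11 (adjusted p = 0.000479) and its treated libraries held 236, 229 and 242 CPM. Rps26, which lines the exit channel of messenger RNA on the small subunit, held 260.3, 196 and 189 CPM in db/+ islets and 317, 291 and 264 CPM in untreated db/db islets. These groups came within a few CPM of each other, and the log2 fold change of 0.44 ± 0.13 (adjusted p = 0.0102) became 0.68 without db/+ replicate 1. Rps2, a small-subunit protein at the entry channel of messenger RNA, changed by 0.44 ± 0.14 (log2; adjusted p = 0.014). Its call was lost without db/+ replicate 2 (log2 fold change 0.37, adjusted p = 0.0629), and it became 0.71 without db/+ replicate 1. The other higher members were Rps3, Rpl23a, Rpl7, Rps23 and Rps18, with log2 fold changes from 0.28 to 0.40. The calls of Rpl7 and Rps23 were each lost in 7 of the 9 removals, with adjusted p from 0.0581 to 0.127 for Rpl7 and from 0.051 to 0.115 for Rps23.

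**Figure D2:**
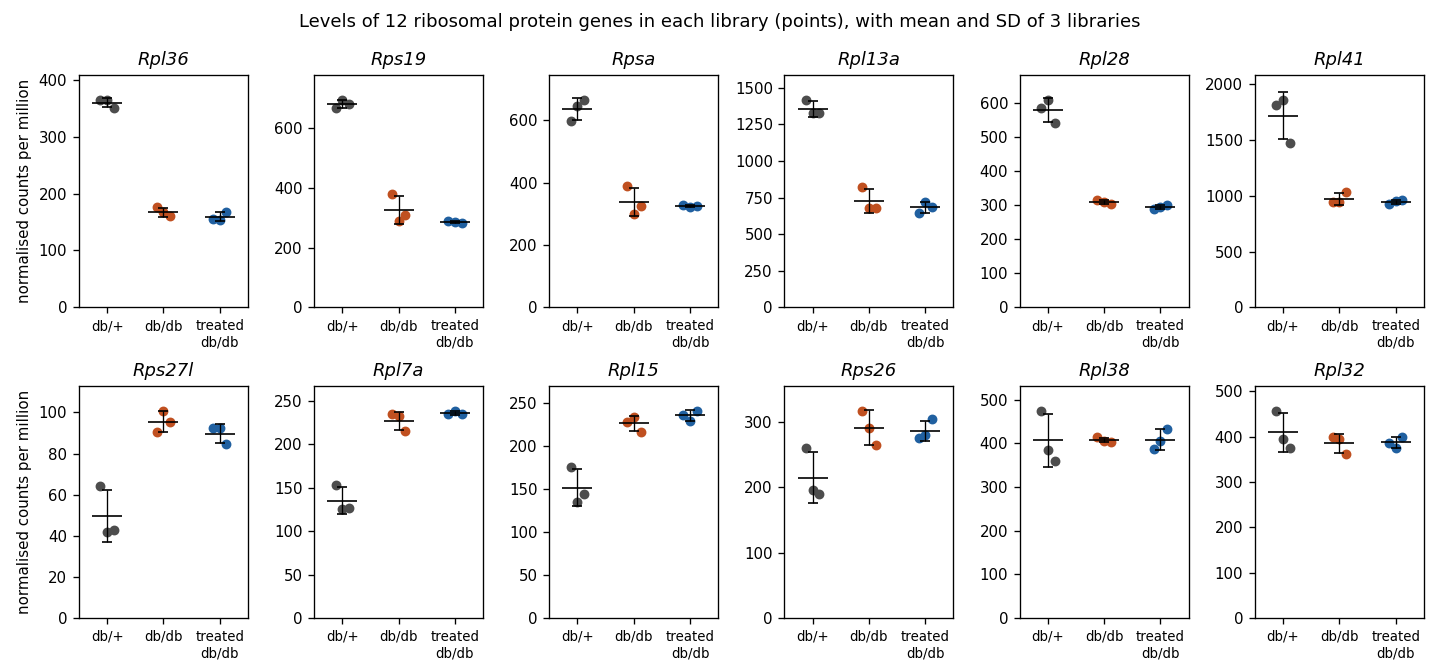
Level (vertical axis, TMM-normalised CPM from 0) of 12 ribosomal protein genes in each of the 9 libraries (points, by group on the horizontal axis), with bars for mean and SD of 3 libraries; the genes are the 6 with the lowest and the 4 with the highest log2 fold change in untreated db/db islets, and 2 near no change. For Rpl36 the db/+ libraries sit at 350.7 to 364.7 and the db/db libraries at 153.3 to 175.6, whereas for Rpl38 and Rpl32 the groups overlap.

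Promoters of the 4 lowest and 4 highest members in untreated db/db islets that are in the RefSeq table of promoters (GRCm38.p6) are shown because these genes share a function and moved in opposite directions. Each line gives 40 bases before and 20 bases from the annotated start of transcription, 5′ to 3′ on the gene's strand, and capitals mark the longest run of C and T that touches the 21 bases around that start.
Rps19, chr7:24884552-24884611, + strand: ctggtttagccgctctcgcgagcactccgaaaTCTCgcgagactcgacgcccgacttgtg
Rpsa, chr9:120127726-120127785, + strand: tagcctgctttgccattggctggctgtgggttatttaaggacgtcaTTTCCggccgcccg
Rpl28, chr7:4792925-4792984, + strand: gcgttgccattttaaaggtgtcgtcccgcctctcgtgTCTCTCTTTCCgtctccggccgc
Rpl13a, chr7:45128726-45128785, - strand: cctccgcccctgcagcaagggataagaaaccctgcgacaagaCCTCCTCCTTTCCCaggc
Rps27l, chr9:66946046-66946105, + strand: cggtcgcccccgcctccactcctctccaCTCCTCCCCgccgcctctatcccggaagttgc
Rpl7a, chr2:26910767-26910826, + strand: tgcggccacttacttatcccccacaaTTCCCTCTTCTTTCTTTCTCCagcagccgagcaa
Rpl15, chr14:18270967-18271026, - strand: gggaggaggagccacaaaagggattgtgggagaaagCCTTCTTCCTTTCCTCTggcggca
Rps2, chr17:24720023-24720082, + strand: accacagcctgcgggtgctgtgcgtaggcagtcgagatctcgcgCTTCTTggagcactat
Runs of at least 8 pyrimidines touch the 21 bases around the start in lower members (11 bases in Rpl28, 14 in Rpl13a). They do so in higher ones too (21 in Rpl7a, 17 in Rpl15, 9 in Rps27l), and that of Rps27l ends before the annotated start. Shorter runs stand in both as well (4 in Rps19, 5 in Rpsa, 6 in Rps2).

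Of the 85 tested members 61 had a promoter in the table. A run of at least 8 pyrimidines touching the 21 bases around the start stood in 27 of the 61 (44.3%), and in 13.9% of the 27025 promoters of the table. It was found in 12 of 22 members called lower, 5 of 8 called higher and 10 of 31 not called. Over the whole window of 300 bases and both strands, CCGGAAG, a core that ETS factors such as Gabpa bind, was in 39.3% of members and 9.12% of all promoters. The GC box GGGCGG was in 62.3% and 35.9%, AAGATGGC, the core of the YY1 motif, in 8.20% and 2.88%, and TATAAA in 9.84% and 14.2%. A match of letters is a description of the window, and annotated starts can lie some bases from the start used in islets.

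The remaining lower members covered both subunits. Rpl41, a peptide at the bridge between subunits and the member with the highest level per kilobase, fell from 1812, 1859.9 and 1473 CPM to 941, 944.7 and 1037 CPM (log2 fold change -0.82 ± 0.12, adjusted p = 7.83e-05). Rps15, Rpl8, Rpl17, Rpl14, Rpl24, Rplp1 and Rps24 had log2 fold changes between -0.81 and -0.66, and groups were apart for each. Rpl21, which was counted at only 6.34 to 11.7 CPM, Rpl29, Rpl19, Rpl35 and Rps20 lay between -0.60 and -0.53. Of the large subunit 23 of 50 tested members were lower and 4 higher, and of the small subunit 8 of 35 were lower and 6 higher, with median log2 fold changes of -0.25 and 0.07, beside 32.0% of all genes lower and 31.3% higher. The difference between subunits was not tested.

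Many lower calls with small fold changes lay close to the threshold, although Rpl11, Rpl37a and Rpl34 kept theirs in all 9 removals. Among those that lost their call when 1 library was left out were Rpl31, Rps21, Rps27, Rpl27a, Rplp2, Rpl13 and Rpl22l1, with log2 fold changes from -0.43 to -0.25, and each of these lost it without db/+ replicate 1. In that setting their log2 fold changes were -0.21 to -0.07 and their adjusted p 0.135 to 0.458. Rps21, Rpl27a and Rplp2 lost the call in 8 of the 9 removals, Rps27 in 7, Rpl13 in 6, Rpl31 in 3 and Rpl22l1 in 1. Under library totals Rplp2 turned to 0.04 (adjusted p = 0.741), and Rpl27a stood at 0.00 (adjusted p = 0.98).

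Several members with set places in the ribosome did not pass the test in untreated db/db islets. Of the stalk, which recruits elongation factors, Rplp1 fell from 736, 675 and 592 CPM to 448, 388 and 400.1 CPM (log2 fold change -0.70 ± 0.11, adjusted p = 0.000133), while Rplp0 had 0.26 ± 0.11 (adjusted p = 0.0566). The groups did not overlap for Rplp0, at 874, 757 and 721 CPM against 958, 957 and 904 CPM. Rplp0 was called higher by DESeq2 (log2 fold change 0.29, adjusted p = 0.00194) and limma's voom (0.27, adjusted p = 0.0356). It was also called in edgeR with upper-quartile factors (0.37, adjusted p = 0.00723), but not with the counts of named copies added (0.26, adjusted p = 0.0572). Rpl5 and Rpl11, which carry 5S ribosomal RNA and bind the p53 inhibitor Mdm2, differed in their calls. Rpl11 fell from 408, 369.9 and 343 CPM to 298, 284 and 261 CPM (log2 fold change -0.41 ± 0.10, adjusted p = 0.00316). Rpl5, at 671, 617 and 560.0 CPM against 602, 535 and 513 CPM, had overlapping groups and -0.16 ± 0.11 (adjusted p = 0.211).

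Around the tunnel through which the new protein leaves, Rpl17 fell (log2 fold change -0.72 ± 0.10, adjusted p = 6.71e-05), while Rpl4 and Rpl39 had 0.23 (adjusted p = 0.0847) and -0.07 (adjusted p = 0.595). Rpl3 and Rpl10, which reach towards the peptidyl transferase centre, had 0.07 (adjusted p = 0.582) and 0.19 (adjusted p = 0.204). Rps6, the substrate of S6 kinase below mTORC1, held 531, 424 and 419 CPM in db/+ islets and 494, 492 and 460.5 CPM in untreated db/db islets, which overlap (log2 fold change 0.07 ± 0.11, adjusted p = 0.591). Rps27a, made as a fusion with ubiquitin, varied between libraries of a group. It held 542, 405 and 399.9 CPM in db/+ islets and 449, 269 and 366 CPM in untreated db/db islets, with a standard error of 0.22 on a log2 fold change of -0.31 (adjusted p = 0.225). Rpl38, which in mouse embryos is needed for translation of Hox messenger RNAs, was level at 0.01 ± 0.12 (log2; adjusted p = 0.972).

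Genes mutated in Diamond-Blackfan anemia in people, an anemia of failed ribosome production, were spread over both directions and no change. Rps19 and Rps24 fell (log2 fold change -1.06 and -0.66, adjusted p for Rps24 = 0.000338) and Rps26 rose. Rps7, Rps10 and Rpl35a were not called, with log2 fold changes of 0.18, -0.08 and -0.05 and adjusted p of 0.174, 0.49 and 0.702.

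Per kilobase of transcript, the members with the highest mean level over the 9 libraries were Rpl41, Rps14, Rps29, Rpl10 and Rpl37a. The means per kilobase of Rpl41 were 3819.8 CPM in db/+ islets, 2169.8 in untreated db/db islets and 2109 in treated ones. Rpl37a was the only other one of these 5 that was called in untreated db/db islets, with a log2 fold change of -0.44 ± 0.10 (adjusted p = 0.00197) that was not called under library totals (-0.17, adjusted p = 0.0926). Rps14, Rps29 and Rpl10 had log2 fold changes of 0.10, 0.06 and 0.19 (adjusted p 0.435, 0.72 and 0.204).

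No ribosomal protein gene passed the test between treated and untreated db/db islets. Of the 85 tested members 0 were called by edgeR's quasi-likelihood test, and 0 had an unadjusted p under 0.05, where 0.179% (0.00597% higher and 0.173% lower) and 17.4% of all genes tested did. DESeq2 and limma's voom called 0 members as well, against 3.75% and 0.0597% of all genes. Log2 fold changes lay between -0.23 and 0.42, with a median of 0.01 against 0.07 over all genes, and the quartiles were -0.09 and 0.05 against -0.13 and 0.21. For 84 of 85 members the log2 fold change was under 0.3 in size, as it was for 71.2% of all genes, with a median standard error of 0.11 for members. The exception was Rps3a3, with 255 counts in all (0.42 ± 0.33).

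The treated and untreated libraries did not overlap for 16 members, 14 lower and 2 higher, while 27.6% of all genes had groups apart. Rpl22l1 held 62.5, 58.4 and 53.2 CPM in untreated db/db islets and 52.0, 52.2 and 43.7 CPM in treated ones (log2 fold change -0.23 ± 0.12, adjusted p = 0.347). Rpl10a, at 205, 170.3 and 174 CPM against 160, 155 and 162 CPM, had the lowest adjusted p of all members (log2 fold change -0.20 ± 0.10, adjusted p = 0.309). The 2 members higher in all treated libraries were Rpl4 and Rps6. Rpl4 held 1117, 1112 and 1089 CPM in untreated and 1247, 1212 and 1287 CPM in treated db/db islets, and its log2 fold change was 0.17 ± 0.11 (adjusted p = 0.433). Rps6 had 0.21 ± 0.11 (adjusted p = 0.364).

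**Figure D3:**
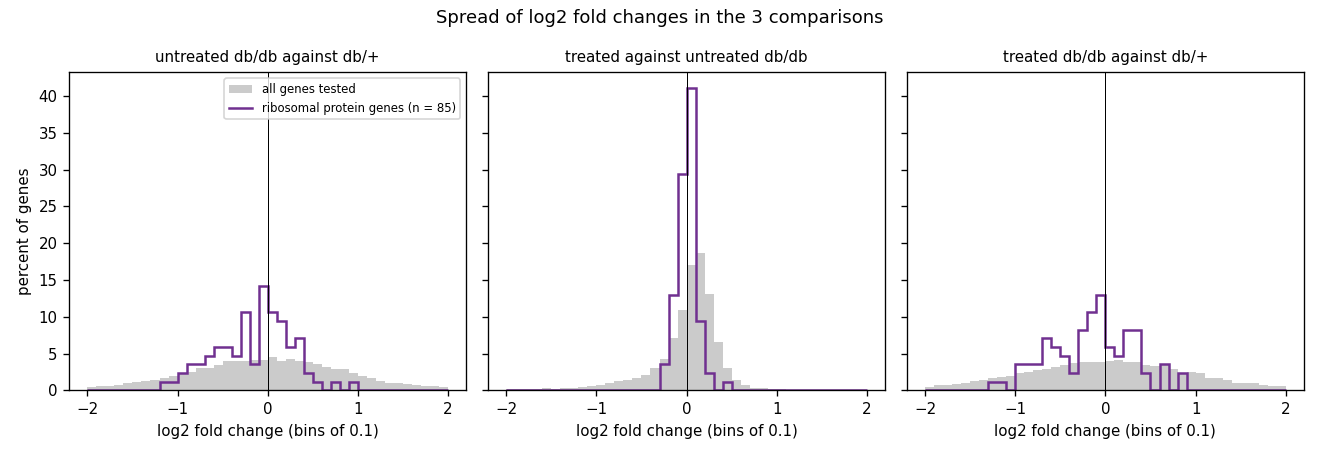
Percent of genes (vertical axis) in bins of 0.1 of log2 fold change (horizontal axis) for the 85 ribosomal protein genes (purple line) and all 16761 genes tested (grey) in the 3 comparisons; changes beyond 2 in size are not drawn. In the middle panel, treated against untreated db/db islets, members lie between -0.23 and 0.42, while against db/+ islets they spread from about -1.2 to 0.9.

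Treated db/db islets differed from db/+ islets in much the same members as untreated ones, but both comparisons use the same db/+ libraries, so this is no separate evidence. Of the 85 members 16 were higher and 28 lower, and 51.8% were called against 65.3% of all genes tested (32.8% higher and 32.5% lower). DESeq2 called 48 and limma's voom 45, against 63.4% and 64.9% of all genes, and 47 had an unadjusted p under 0.05 against 68.1%. In both comparisons 27 members were lower, 9 were higher and 36 were not called, and 0 were called in opposite directions. Log2 fold changes ran from -1.25 for Rps19 to 0.85 for Rps27l, with a median of -0.12 against 0.02 over all genes. The libraries of treated db/db and db/+ islets did not overlap for 50 members, against 71.0% of all genes. The lower calls kept better than the higher ones, since 25 of 28 lower and 4 of 16 higher members were called in all 9 removals of 1 library.

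Rps19 had the lowest value in treated islets at -1.25 ± 0.11 (log2; adjusted p = 1.12e-06), followed by Rpl36 at -1.18 ± 0.09, Rpl13a at -0.99 ± 0.12, Rpsa at -0.97 ± 0.11 and Rpl28 at -0.97 ± 0.09, with adjusted p from 3.21e-07 to 9.25e-06. Higher calls that kept in every removal were Rps27l (0.85 ± 0.14, adjusted p = 0.000192), Rpl7a (0.80 ± 0.10, adjusted p = 1.71e-05), Rpl15 (0.63 ± 0.11, adjusted p = 0.000204) and Rpl4 (0.41 ± 0.11, adjusted p = 0.00612). With the GC offset 6 of the 16 higher and 22 of the 28 lower calls were kept, and Rpl4 had 0.17 (adjusted p = 0.166). Rps26 had 0.41 ± 0.13 (adjusted p = 0.013) and lost its call without db/+ replicate 2 (adjusted p = 0.0984) or replicate 3 (0.0674) and with the GC offset (0.175). Rps3a2, at 2.48 to 3.56 CPM in db/+ islets and 4.09 to 5.03 in treated ones, had 0.67 ± 0.24 (adjusted p = 0.0289), a call lost without db/+ replicate 2 (adjusted p = 0.114), db/+ replicate 3 (0.107), treated replicate 2 (0.0658) and treated replicate 3 (0.0797). The number of higher members was 4 without db/+ replicate 2, 5 without db/+ replicate 3, 25 without db/+ replicate 1, and 10, 9 and 6 without treated replicates 1, 2 and 3. It was 25 with library totals alone, beside 24 lower.

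Members called in treated islets and not in untreated ones included Rps6, Rpl10, Rplp0, Rpl4, Rpl27, Rps3a2 and, lower, Rpl9. The difference between treated and untreated islets was not called for any of them, and except for Rpl4 each lost its call against db/+ islets in some removal. Rpl10, for example, held 950.3, 760.4 and 781 CPM in db/+ islets and 1046, 988 and 1121 CPM in treated ones (log2 fold change 0.34 ± 0.12, adjusted p = 0.0272), and without db/+ replicate 2 it had 0.22 (adjusted p = 0.151). Rplp0 had 0.29 ± 0.11 (adjusted p = 0.0354) and 0.20 without db/+ replicate 3 (adjusted p = 0.117). Rps6 had 0.28 ± 0.11 (adjusted p = 0.0453) and 0.17 without db/+ replicate 2 (adjusted p = 0.243). Each of these 3 genes also lost its call without the other of those db/+ libraries and without treated replicates 1 and 3, Rplp0 and Rps6 without treated replicate 2 and Rps6 without untreated db/db replicate 3, with adjusted p from 0.0507 to 0.163.

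Some ribosomal proteins have a second gene whose protein can take the same place. Of the 8 paralogs listed, Rpl3l, Rpl10l and Rpl39l were under the filter, which in mice are best known from muscle or testis. Rps27l rose against its partner: the ratio of Rps27l to Rps27 was 0.0843, 0.0649 and 0.0777 in db/+ islets, 0.153, 0.207 and 0.213 in untreated db/db islets, and 0.160, 0.172 and 0.134 in treated ones. No db/db library fell in the db/+ range. The mean ratio went from 0.0756 ± 0.00984 to 0.191 ± 0.0328 (SD, n = 3, exact permutation test over samples, two-sided p = 0.1, the smallest that 3 against 3 can give).

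The ratio of Rpl22l1 to Rpl22, of which Rpl22 represses Rpl22l1 in mouse cells, moved the other way. It was 0.680, 0.787 and 0.606 in db/+ islets, 0.443, 0.463 and 0.444 in untreated db/db islets, and 0.398, 0.425 and 0.350 in treated ones, so all 3 groups were apart (each exact permutation p = 0.1). Rpl22l1 changed by -0.43 ± 0.12 (log2; adjusted p = 0.00867) and Rpl22 by 0.18 ± 0.12 (log2; adjusted p = 0.19). Without db/+ replicate 1, Rpl22l1 had -0.21 (adjusted p = 0.135). The ratio of Rpl7l1, a nucleolar relative of Rpl7, to Rpl7 fell from 0.116 ± 0.00462 to 0.0898 ± 0.00628 and 0.0820 ± 0.00176 (means ± SD, n = 3, exact permutation p = 0.1 for each pair of groups). Rpl7l1 itself was at -0.05 (log2; adjusted p = 0.735).

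Rpl36al relative to Rpl36a was 1.33 ± 0.0692, 1.19 ± 0.160 and 1.24 ± 0.0959 in the 3 groups, which overlap, and Rps4l relative to Rps4x was 0.0430 ± 0.00407, 0.0493 ± 0.0139 and 0.0471 ± 0.000862 (SD, n = 3). For these pairs the exact permutation p between untreated db/db and db/+ islets was 0.3 and 0.6. Ratios within a library do not depend on the scaling of libraries. The same holds between members that moved in opposite directions: the ratio of Rpl7a to Rps19 was 0.181 to 0.231 in db/+ islets, 0.618 to 0.803 in untreated db/db islets and 0.813 to 0.835 in treated ones. That pair was chosen for its difference, so the ratio is a description.

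Processed copies of ribosomal protein genes lie throughout the mouse genome, and reads can be split between a gene and its copies. The table listed 226 copies named with a -ps suffix, which held 211216 counts, and 58 of the 85 tested members had at least 1. How reads with several alignments were counted is not given in the sources used here, so the members with large copies are uncertain. Rpsa-ps10 held 48435 counts over all libraries and Rpsa 48333. The copy fell like the gene, from 641, 705 and 736 CPM to 363, 294 and 314 CPM (log2 fold change -1.10 ± 0.11, adjusted p = 3.13e-06). Rpl34-ps1 held 19621 counts against 6522 of Rpl34, and fell by 0.36 on the log2 scale (adjusted p = 0.017), the gene by 0.46 (adjusted p = 0.00197).

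For Rpl3 and Rpl14 the copy and the gene differed. Rpl3-ps1, with 21687 counts, rose from 132, 106 and 108 CPM to 210.4, 193 and 170.2 CPM (log2 fold change 0.72 ± 0.11, adjusted p = 0.000134), while Rpl3 had 0.07. Rpl14-ps1, with 19627 counts, had -0.13 ± 0.09 (adjusted p = 0.23), while Rpl14 had -0.71 ± 0.09 (adjusted p = 3.17e-05). With the counts of copies added to each gene, Rpl3 had 0.27 (adjusted p = 0.0518) and Rpl14 -0.53 (adjusted p = 0.000419), and all 31 lower and 10 higher calls were kept. Among the 82 copies tested, untreated db/db islets had 13 higher and 27 lower, beside 31.3% and 32.0% of all genes, and 0 were called between treated and untreated ones, beside 0.179%. The lowest was Rpl23a-ps2, which went from a mean of 8.42 CPM to 0.279 CPM (log2 fold change -4.88), a copy with 274 counts whose gene Rpl23a rose.

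**Figure D4:**
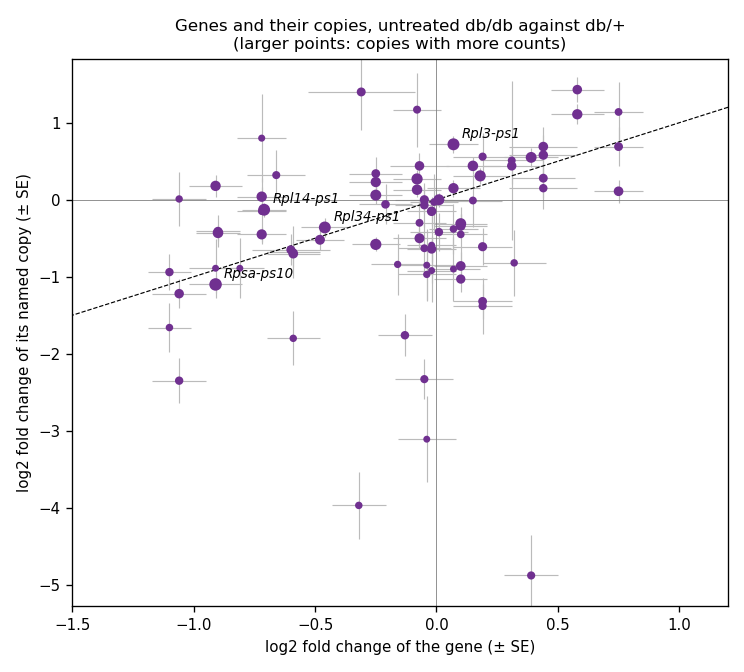
Log2 fold change, untreated db/db against db/+, of a ribosomal protein gene (horizontal axis) and of each of its 82 tested copies (vertical axis), both ± standard error, with larger points for copies with more counts and a dashed line of equality. Rpsa-ps10 at -1.10 lies near its gene at -0.91, while Rpl3-ps1 at 0.72 lies above its gene at 0.07 and Rpl23a-ps2 is lowest at -4.88.

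GC content and fold change were weakly related among members. Over the 85 members, GC content and the change in untreated db/db islets had a Spearman rho of -0.29, and over 15695 genes with a GC value the rho was -0.27, a similar value. Points share the same libraries, and rho is given as a description. The 18 members above 55% GC had a median log2 fold change of -0.42 and the 29 members between 45% and 50% had -0.02, against -0.37 and 0.22 for all genes in these bins. The 4 members up to 45% GC had a median of -0.30 where all genes had 0.36. Transcript length had a rho of 0.0254 among members. With an offset for GC content fitted per library, an alternative chosen after seeing the data, 23 of the 31 lower and 6 of the 10 higher calls were kept.

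Rps15, at 62.4% GC, went from -0.81 ± 0.10 (adjusted p = 1.73e-05) to -0.23 (adjusted p = 0.0661) with that offset. Rps10, at 60.3% GC, turned from -0.08 to 0.42 (adjusted p = 0.00457), and Rps26 lost its call (0.28, adjusted p = 0.0566). Rpl36, Rps19, Rpsa, Rpl13a, Rpl28, Rps27l, Rpl7a and Rpl15 kept theirs. Whether GC content stands for the chemistry of the libraries or for the genes themselves was not tested.

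**Figure D5:**
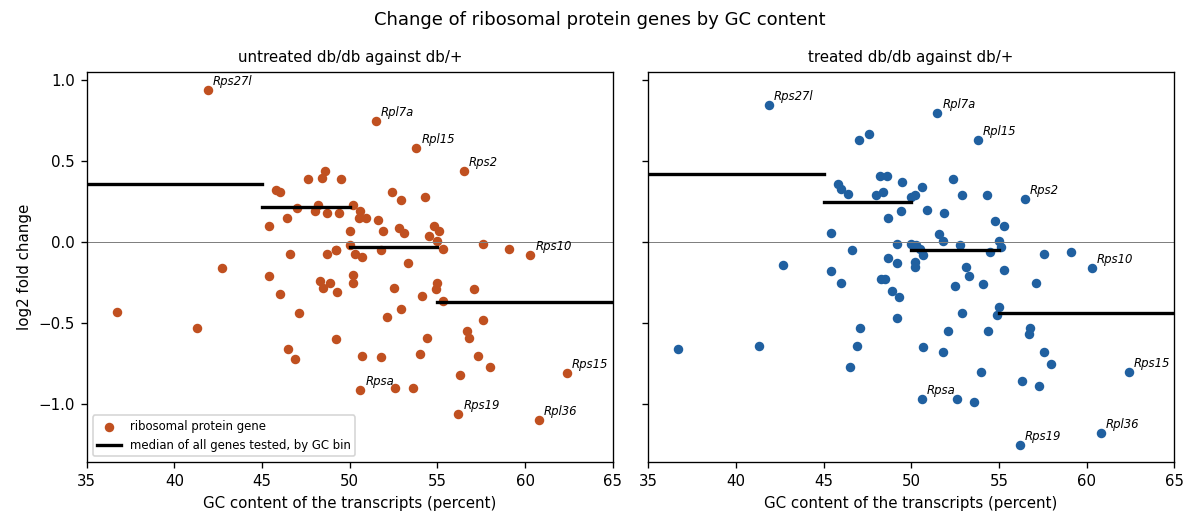
Log2 fold change (vertical axis) of the 85 tested ribosomal protein genes by GC content of their transcripts in percent (horizontal axis), for untreated (left) and treated (right) db/db islets against db/+ islets, with black lines for the median of all genes tested in 4 bins of GC. The all-gene median is -0.37 above 55% GC on the left, near the members' -0.42 there, while Rps27l at 41.9% GC and Rpl7a at 51.5% GC lie well above the lines.

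In the lists that follow, the background in untreated db/db islets is the 31.3% of all genes called higher and the 32.0% called lower. In treated islets against db/+ it is 32.8% higher and 32.5% lower. Under library totals 62.9% of all genes were called in untreated db/db islets, and the median of all genes moved up to 0.30. Settings named are a score of lymphocyte or acinar markers as a covariate, library totals alone and the GC offset. Partners of the ribosome that the symbol rule leaves out gave 1 higher and 3 lower of 8 in untreated db/db islets (median log2 fold change 0.14). Fau, a fusion from which the small-subunit protein eS30 is cut, fell from 518, 503 and 479 CPM to 286, 253 and 251 CPM (log2 fold change -0.92 ± 0.10, adjusted p = 4.28e-06). Nop53, which helps to export the large subunit, changed by -0.97, while Tpt1, another TOP messenger RNA, rose by 0.51 (adjusted p 1.93e-06 and 0.00575). Tpt1 had 0.43 with the lymphocyte score (adjusted p = 0.286) and 0.66 with the acinar score (adjusted p = 0.0504). Under library totals the list stood at 5 higher and 2 lower. Treated islets had 2 higher and 3 lower against db/+, with Fau at -1.06, Nop53 at -0.83 and Tpt1 at 0.54. Naca, a chaperone of new proteins, had 0.32 there (adjusted p = 0.0241) and lost its call without db/+ replicate 2 (adjusted p = 0.113), db/+ replicate 3 (0.112), treated replicate 1 (0.0531) and treated replicate 3 (0.0533).

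Of 12 elongation and termination factors, untreated db/db islets had 7 higher and 2 lower (median log2 fold change 0.48), so that 9 of 12 were called beside 63.2% of all genes. Eef1a1, which brings transfer RNA to the ribosome, rose from 3394, 2609 and 2517 CPM to 5006, 5135 and 4742 CPM (log2 fold change 0.80 ± 0.15, adjusted p = 0.000401), and had 0.79 with the lymphocyte score (adjusted p = 0.0752). Eif5a2 rose by 1.52 (adjusted p = 1.48e-05), while Eef1d, an exchange factor of Eef1a1, fell by 0.94 on the log2 scale (adjusted p = 1.65e-06). Eif5a had -0.34 (adjusted p = 0.00895), and -0.18 with an adjusted p of 0.071 without db/+ replicate 1. In treated islets 8 were higher and 2 lower against db/+, among them Eef2k, the kinase that slows Eef2, at 0.93 (adjusted p = 0.000198).

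Of 34 initiation factors 10 were higher and 16 lower (median -0.12). Eif2s3x, the gamma subunit of eIF2, rose by 1.74 and Eif4g2 by 1.15, while Eif5b, which joins the subunits, had -1.51 and Eif6, which keeps them apart, had -1.48 (log2; adjusted p 3.31e-07, 2.53e-06, 3.54e-07 and 1.01e-06). Library totals gave 14 higher and 10 lower. In treated islets 11 were higher and 17 lower against db/+, with the same 4 genes at the ends.

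Factors that assemble ribosomes gave 10 higher and 24 lower of 56 in untreated db/db islets (median -0.10), and 21 higher and 13 lower under library totals. Nop56, a core protein of the RNAs that guide methylation of ribosomal RNA, fell from 101, 131 and 148 CPM to 59.7, 49.5 and 49.7 CPM (log2 fold change -1.25 ± 0.15, adjusted p = 1.49e-05), and Noc2l fell by 1.14 (adjusted p = 7.74e-06). Npm1, a nucleolar chaperone, rose from 120, 94.1 and 122 CPM to 271, 227 and 214 CPM (log2 fold change 1.09 ± 0.12, adjusted p = 8.70e-06), and Rrs1 rose by 0.83 (adjusted p = 0.00593), a call lost with the acinar score (0.05, adjusted p = 0.91) and the lymphocyte score (0.24, adjusted p = 0.692) in the fit. In treated islets 5 were higher and 29 lower against db/+ (median -0.49), with Nop56 at -1.78, Noc2l at -1.49, Npm1 at 1.06 and Ddx10 at 0.55, of which Ddx10 lost its call with the GC offset (0.16, adjusted p = 0.314) and the acinar score (0.40, adjusted p = 0.0697). Between treated and untreated islets 0 of the 56 were called by edgeR, beside 0.179% of all genes. An unadjusted p under 0.05 was found for 18 of the 56 and for 17.4% of all genes. DESeq2 called 5 of the 56 and 3.75% of all genes. It also called 2 of 10 genes of the Myc network below, 1 of 12 elongation and termination factors and 1 of 34 initiation factors, and 0 in the other lists.

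RNA polymerase I, which transcribes ribosomal RNA, and its factors had 0 higher and 9 lower of 16 tested (median -0.32), so that 56.2% were called beside 63.2% of all genes. Taf1c, of the selectivity factor, fell from 32.1, 44.7 and 48.6 CPM to 12.2, 12 and 10.7 CPM (log2 fold change -1.84 ± 0.15, adjusted p = 5.50e-07), and Polr2e, a subunit shared by the polymerases, by 1.01 (adjusted p = 1.14e-05). Ubtf had -0.38 (adjusted p = 0.00946) and lost its call without db/+ replicate 3 (adjusted p = 0.059), and Rrn3 had -0.26 (adjusted p = 0.0177) and stood at 0.02 under library totals (adjusted p = 0.86). It lost its call without db/+ replicate 1 (adjusted p = 0.174) and untreated db/db replicate 3 (adjusted p = 0.06). Under library totals 1 was higher and 5 lower. In treated islets 0 were higher and 10 lower against db/+, with Taf1c at -2.19, Taf1d at -1.26 and Ubtf at -0.28 (adjusted p = 0.0415), which lost its call in 7 of the 9 removals. Polr1b had -0.40 there (adjusted p = 0.0166), and an adjusted p of 0.0835 without treated replicate 3, 0.0625 without db/+ replicate 3 and 0.0537 without treated replicate 1.

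Genes of mTORC1 and of TOP messenger RNA control went both ways, 9 higher and 10 lower of 30 (median -0.03), and 13 and 6 under library totals. Larp4b, a relative of Larp1 that binds messenger RNA, fell from 504, 548 and 538 CPM to 110.4, 109 and 107 CPM (log2 fold change -2.28 ± 0.09, adjusted p = 9.63e-09). Sesn3, which restrains mTORC1, rose by 1.99 and Eif4ebp2, a repressor of eIF4E, by 1.80, while Lamtor4, part of the lysosomal anchor of mTORC1, had -1.12 (adjusted p 5.60e-07, 9.11e-07 and 2.10e-06). In treated islets 11 were higher and 10 lower against db/+, with Larp4b at -2.27, Sesn3 at 2.47 and Eif4ebp2 at 1.77. Castor1 had -1.19 there at 0.458 to 1.39 CPM (adjusted p = 0.048), and lost its call in 6 of the 9 removals.

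The Myc network had 3 higher and 0 lower of 10 in untreated db/db islets, and 7 and 0 under library totals. Mycn rose from 0.495, 0.306 and 0.596 CPM to 1.83, 1.07 and 1.35 CPM (log2 fold change 1.58 ± 0.39, adjusted p = 0.0036). Its call was lost with the acinar score (0.58, adjusted p = 0.477) and the lymphocyte score (0.78, adjusted p = 0.424). Mxi1 and Mxd4, repressors of the network, rose by 0.80 and 0.74. In treated islets 4 were higher and 2 lower against db/+, with Mycn at 1.93, Mxd4 at 1.02 and Mxd1 at -0.90. Myc itself had -0.63 there (adjusted p = 0.0168) and lost its call without db/+ replicate 1 (adjusted p = 0.064), db/+ replicate 3 (0.0624), treated replicate 1 (0.0562) and treated replicate 3 (0.0753).

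Genes that resolve stalled ribosomes gave 4 higher and 6 lower of 11 tested. Ltn1, the ligase that marks stuck nascent chains, rose by 0.60 (adjusted p = 4.03e-05), while its partner Nemf had -1.27 and Zfp598, which detects collided ribosomes, had -0.97 (adjusted p 7.11e-06 and 6.19e-06). Map3k20 had 0.64 (adjusted p = 0.0138) and lost its call without db/+ replicate 2 (adjusted p = 0.053), with the acinar score (0.14) and with the lymphocyte score (0.148). Treated islets gave 4 and 6 against db/+ as well, with Ascc3 at 0.75 and Ltn1 at 0.79. Of 10 genes of the p53 response, which defects of ribosome assembly can set off, 6 were higher and 3 lower. Eda2r rose from 0.693, 0.306 and 0.596 CPM to 4.09, 3.91 and 4.70 CPM (log2 fold change 2.97 ± 0.34, adjusted p = 9.08e-06) and Trp53inp1 by 1.92 (adjusted p = 2.87e-05), while Bbc3 and Trp53 had -0.72 and -0.50 (adjusted p 0.000254 and 0.0027). Bbc3 had -0.04 with the GC offset (adjusted p = 0.802) and -0.28 with the lymphocyte score (adjusted p = 0.405), and Trp53 had -0.23 under library totals (adjusted p = 0.217). Treated islets gave 7 higher and 3 lower against db/+, with Eda2r at 2.39, Trp53inp1 at 2.28, Trp53 at -0.76 and Bbc3 at -0.60, the last at 0.03 with the GC offset (adjusted p = 0.861). Between treated and untreated islets 0 genes were called by edgeR in any of these lists. Under library totals, untreated islets had 4 higher and 3 lower stalling genes, 7 and 1 of the p53 response and 8 and 1 elongation factors. Treated islets then had 5 higher and 3 lower partners, 8 and 2 elongation, 14 and 10 initiation and 11 and 24 assembly factors. Polymerase I had 2 and 6, mTORC1 15 and 6, Myc 6 and 1, stalling 4 and 4 and p53 7 and 3. Of all genes, 63.8% were called there, with a median of 0.21.

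The lymphocyte and acinar markers moved with the groups. Summed lymphocyte markers did not overlap between any groups, nor did acinar ones between db/+ and untreated db/db islets. A fit with a score of these markers therefore cannot separate their part from that of the group. Values and lost calls under such a score are descriptions, and the part of these cells was not tested. With a lymphocyte score in the fit, untreated db/db islets had 20 lower and 3 higher members against db/+, with a median of -0.24, and with an acinar score 18 lower and 3 higher. Fewer genes were called in all, 32.0% and 42.1%. Without untreated db/db replicate 1, the library with the most lymphocyte and acinar RNA, the median was -0.12. In RNA of whole islets, fewer cells of a type and less RNA per cell cannot be told apart. The genes outside the rule whose log2 level (of CPM plus 1) followed the members' mean most closely over the 9 libraries were Gm30352 (Pearson r = 0.98), Gm10154 (0.951), Snrpg (0.948), a small protein of the spliceosome, Rps27rt (0.936), a retrogene of Rps27, and Arl2bp (0.926). Each was highest in db/+ replicate 1, as was the members' mean, and Gm30352 was near the floor at 0.641 to 2.97 CPM. These correlations are a description.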

How the data were processed

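RNA of 9 islet samples was extracted on columns and made into libraries with a kit that keeps strand, per the labels' protocols. The submitters' processing notes name build GRCm39 and the tools HISAT2 2.2.1, featureCounts 2.0.0 and cutadapt 1.9.1, but no source used here gives the strand setting or how multiply aligned reads were counted. What the authors deposited is 1 table of raw counts for 139023 RefSeq transcripts. Transcripts of a member held near-equal counts (lowest ratio 0.984 over 34 members), so the one with the highest total stood for the gene. Genes were filtered with edgeR's filterByExpr, which left 16761 of 46316. The test was edgeR 4.0.16's quasi-likelihood F-test in R 4.3.3 (TMM, robust, 3 group means over all 9 libraries), with Benjamini-Hochberg adjustment over all genes tested and calls at 0.05. It was also run on simulated counts in which few genes changed. Far more genes were called in the data against db/+ islets, so that run does not bear on the choice of scaling. CPM are TMM-scaled. DESeq2 1.42.0, limma 3.58.1 (voom), other scalings, filters, covariates and removal of each library were alternatives. GC content came from GENCODE transcripts of GRCm38, matched by RefSeq accession or, failing that, as the median over transcripts of the symbol (85 of 85 members). Genome coordinates are those of RefSeq GRCm38.p6; no peptide sequences were used. Named in each comparison were the 5 called members with the highest and lowest log2 fold change, the 5 highest per kilobase, paralogs, members with set roles, and the 2 highest and 2 lowest called genes of each list. No member was called between treated and untreated islets, so those described there were chosen after their values were seen or by role. Members and lists were chosen with earlier results of these data known. Some genes enter the counts but are not reported here by name.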

Additional observations from a re-analysis of the deposited data

How the results depend on the processing

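Against db/+ islets, untreated db/db islets had 10 higher and 31 lower members. Calls higher became 19 with upper-quartile factors, 36 with library totals, 3 with an acinar or a lymphocyte score and 31 with an equal share of ribosomal protein counts, an alternative chosen after seeing the data. Calls lower became 16 with library totals, 18 with the acinar score, 20 with the lymphocyte score and 20 with an equal share. The median of -0.07 became 0.04 with upper-quartile factors, 0.21 with library totals, -0.24 with the lymphocyte score and 0.15 with an equal share. The median of all genes, 0.02 in the main fit, was 0.13, 0.30, 0.02 and 0.24 in the same order. Relative to all genes, the members' median was -0.10 in the main fit and -0.10, -0.08, -0.26 and -0.09 there. Of all genes, 63.2% were called in the main fit. The share was 63.8% with upper-quartile factors, 62.9% with library totals, 42.1% with the acinar score, 32.0% with the lymphocyte score and 61.5% with an equal share. Leaving out 1 library gave 7 to 32 higher, 23 to 32 lower and medians of -0.12 to 0.09. In treated islets against db/+, calls higher (16) became 25 with library totals, 9 with the acinar score and 28 with an equal share. Of all genes, 65.3% were called in the main fit and 63.8%, 59.2% and 63.2% in these settings. The median of -0.12 became 0.08 and 0.10 with library totals and an equal share, where that of all genes moved from 0.02 to 0.21 and 0.23. Leaving out 1 library gave 4 to 25 higher, 25 to 36 lower and medians of -0.22 to 0.02. Between treated and untreated islets 0 members were called in every setting tried, and the median became 0.18 with the lymphocyte score; removals gave medians of -0.07 to 0.05. The cause of these shifts was not tested. Directions reversed for Rpl35a (0.24) and Rplp2 (0.04) with library totals and Rps4l with the lymphocyte score (0.69) in untreated islets, and with the GC offset for Rps10 (0.42) and Rps4l (0.41) in untreated and Rps10 (0.36) and Rps4l (0.42) in treated islets. Among other genes whose call changed, signs also turned with library totals for Rpl6 (0.22), Rpl18 (0.27) and Rps12 (0.27) and without db/+ replicate 1 for Rps13 (0.19) in untreated islets, with the GC offset for Rpl13 (0.07 untreated, 0.13 treated), Rpl18 (0.37, 0.34) and Rps15a (-0.28 treated), and in the gene lists for Rrn3 with library totals (0.02) and Bbc3 with the GC offset (0.03 treated). With the replicate number as a block, calls were 9 higher and 27 lower in untreated islets against db/+. They were 0 and 0 between treated and untreated islets, and 12 and 28 in treated islets against db/+. Deviations from group means correlated from -0.427 to 0.0585 between same-numbered samples and from -0.304 to 0.437 between differently numbered ones. With so few libraries these values cannot settle whether the numbers pair the samples, and the labels state no pairing. Depth limits Rps3a2, Rps3a3 and the 4 members under the filter. Over the single genes and all settings, 2691 values kept their direction and side of the threshold, 117 no longer passed it and 89 newly passed it.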
